A study of Mus musculus with 10 samples.

Results

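The genes described here are 9 members of the platelet-derived growth factor (PDGF) pathway and of the set of genes used to recognise pericytes: Pdgfa, Pdgfb, Pdgfra, Pdgfrb, Cspg4, Rgs5, Mcam, Kcnj8 and Abcc9. They were taken by gene symbol and make up 9 of the 35663 gene entries in the deposited table. RNA-seq was performed on whole kidneys dissected at E13.5, with the strain given as C57/b6 for every sample. The 4 wild-type libraries carried no engineered allele named in the labels. The 3 Foxd1GC control libraries had the genotype Foxd1-Cre, and the 3 Ntn1SPKO libraries had Foxd1-Cre with both copies of a conditional Ntn1 allele. Ntn1 encodes netrin 1, a secreted guidance protein. Cre in these embryos is made from the Foxd1 gene, which is active in stromal progenitors, so that Ntn1 was targeted in the stroma and in the mural cells that descend from it. Control and Ntn1SPKO kidneys share the Foxd1GC allele, which takes the place of one working Foxd1 copy, and wild-type kidneys do not carry it.

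PDGF ligands are secreted dimers that bind a pair of receptor tyrosine kinases. PDGF-A, made largely by epithelia, acts through PDGF receptor alpha on mesenchymal cells, whereas PDGF-B, made by endothelial cells, binds PDGF receptor beta on pericytes, vascular smooth muscle precursors and mesangial cells and is required for these mural cells to be recruited to vessels and glomeruli. Pericytes are the mural cells of capillaries, and in the kidney they descend mainly from Foxd1-expressing stroma. No single gene defines them, since each member here is also expressed by another cell type of the kidney. In whole kidneys, fewer cells of a type and less RNA per cell cannot be told apart.

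Promoter sequences are shown for 3 members. Kcnj8 and Abcc9 lie side by side on the minus strand of chromosome 6 and encode the pore and the regulatory subunit of the same channel. Their ratio, chosen after the values were seen, separated the Ntn1SPKO libraries from the rest. Pdgfa, on the minus strand of chromosome 5, had the largest difference between groups among the members. The sequences are RefSeq promoters of GRCm38.p6 in the direction of transcription, limited to bases upstream of the annotated exons, and capitals mark a GC box (GGGCGG, on either strand).
Kcnj8, chr6:142571615-142571864: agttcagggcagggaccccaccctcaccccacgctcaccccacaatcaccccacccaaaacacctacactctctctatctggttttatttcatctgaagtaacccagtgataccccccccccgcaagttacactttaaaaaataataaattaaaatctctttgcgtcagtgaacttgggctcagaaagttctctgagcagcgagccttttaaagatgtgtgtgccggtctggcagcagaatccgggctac
Abcc9, chr6:142702316-142702524: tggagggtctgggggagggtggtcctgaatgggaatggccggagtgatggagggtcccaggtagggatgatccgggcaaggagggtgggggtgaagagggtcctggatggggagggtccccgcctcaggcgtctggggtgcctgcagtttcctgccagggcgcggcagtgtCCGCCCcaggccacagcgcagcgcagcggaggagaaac
Pdgfa, chr5:138995038-138995194: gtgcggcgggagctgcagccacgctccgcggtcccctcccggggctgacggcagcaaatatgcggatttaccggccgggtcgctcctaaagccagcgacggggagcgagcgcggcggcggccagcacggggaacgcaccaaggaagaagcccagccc
The 250 bases upstream of Kcnj8 held no GC box, no TATA box (TATAAA), no CCAAT box (CCAAT) and no CArG box, the binding motif of serum response factor, and had a GC content of 49.2%. The 250 bases of the Abcc9 promoter held 1 GC box and had a GC content of 66.8%. Only 209 of them lie upstream of the annotated gene and are printed. The 250 bases of the Pdgfa promoter shown had a GC content of 72.4% and held 2 GC boxes, both within annotated exon sequence that is not printed. This Pdgfa window lies inside the annotated gene (138976014 to 138997370) and not upstream of it. A further Pdgfa promoter entry (138994282 to 138994531), also inside the gene, held 1 GC box and had a GC content of 66.4%. Among 32851 promoters of this length, 32.7% held a GC box, 12.4% a TATA box, 33.8% a CCAAT box and 1.47% a CArG box, all on either strand. Promoters were read for 7 of the 9 members. The interval between Kcnj8 (142564837 to 142571614) and Abcc9 (142587862 to 142702315) spans 16247 bases with 0 genes lying wholly inside it in GENCODE M21.

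Sequencing depth was estimated as 26 to 32 M fragments per library (M, 1e6), a rough value because the table holds FPKM (fragments per kilobase of coding sequence and per M fragments) and not counts. Ntn1 itself was 10.7 to 16.3 FPKM in Ntn1SPKO kidneys, below all control (24.2 to 51.5 FPKM) and wild-type (27.1 to 46.3 FPKM) libraries. Kidney markers were abundant, with mean levels over 10 libraries of 82.0 FPKM for Wt1, 79.7 FPKM for Six2 and 64.3 FPKM for Epcam, while all 5 adrenal and gonad markers had means under 0.5 FPKM. Some libraries stood apart. Control replicate 3 had a summed level of 20 skeletal muscle genes of 1065 FPKM, against 19.9 to 231.9 FPKM in the other 9 libraries, and a summed level of 9 ureteric epithelium genes of 97.4 FPKM, against 217.3 to 271.8 FPKM. Y-linked transcripts were present in all 3 Ntn1SPKO libraries, 1 control library (replicate 2) and 1 wild-type library (replicate 3), so embryo sex and group were partly confounded. The labels do not say whether replicates are separate embryos or litters, and p-values measure the spread between these libraries only.

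All 9 members were detected in all 10 libraries and passed the filter of a mean of at least 0.5 FPKM. In wild-type kidneys Pdgfra had the highest level, 61.8 ± 3.28 FPKM (SD, n = 4), followed by Rgs5 with 36.2 ± 3.74 FPKM and Pdgfa with 24.5 ± 2.77 FPKM, with no overlap between neighbours in this order. Pdgfrb and Mcam came next at 18.9 ± 2.82 and 17.4 ± 2.09 FPKM, and their libraries overlapped. Cspg4, Kcnj8, Pdgfb and Abcc9 formed the lowest group, from 5.41 down to 3.71 FPKM, and each overlapped its neighbour. Pdgfra thus stood 16.6-fold above Abcc9. The same 3 genes led the order in Ntn1SPKO kidneys, whereas in control kidneys the mean of Pdgfa was below those of Mcam and Pdgfrb and its libraries overlapped those of Pdgfrb.

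**Figure D1:**
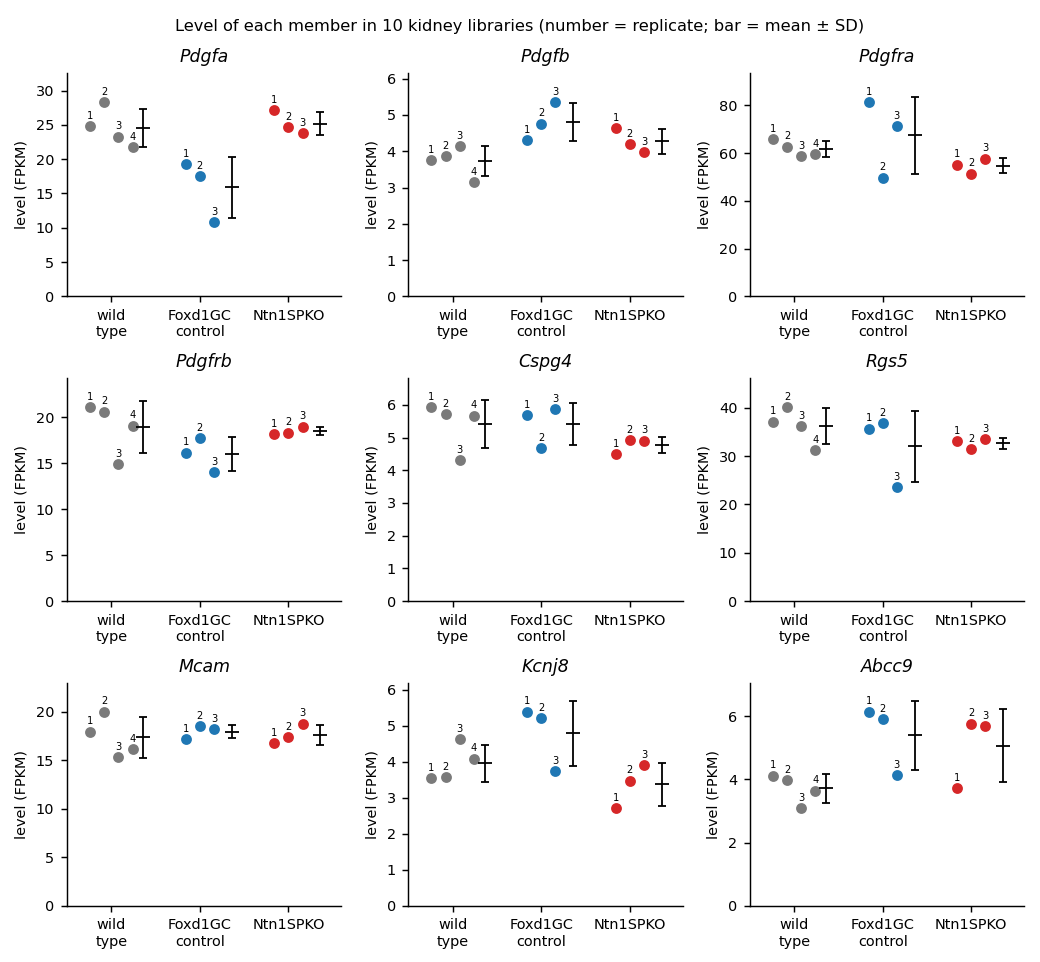
Level of each member in FPKM (vertical axis, from 0) in the 4 wild-type, 3 Foxd1GC control and 3 Ntn1SPKO libraries. Points are libraries numbered by replicate with the mean ± SD beside them, and Pdgfa is lower in every control library (10.9 to 19.3 FPKM) than in any other.

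The groups were compared pairwise with limma on log2(FPKM + 0.1), where 0.1 is a pseudocount and a difference of 1 is 2-fold. Ntn1SPKO against control asked what stromal loss of Ntn1 does when both groups carry Cre, Ntn1SPKO against wild type gave the same loss with the Cre allele included, and control against wild type set kidneys with the Foxd1GC allele against kidneys without it. The call required a 2-fold or larger difference together with a Benjamini-Hochberg adjusted p below 0.1. Single members also had an exact permutation test, two-sided, whose smallest p is 0.1 for 3 libraries against 3 and 0.0286 for 3 against 4. The comparisons share libraries, so their results for a gene are not independent.

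Limma called no member in any comparison. Between Ntn1SPKO and control kidneys 0 of 9 members were called, beside 0.055% of all 14550 genes tested, and between Ntn1SPKO and wild-type kidneys 0 of 9, beside 0.0485% of 14432. Between control and wild-type kidneys 0 of 9 were called, beside 0.00685% of 14594. At an unadjusted limma p under 0.05, there were 2 members (Pdgfa and Kcnj8) in the Ntn1SPKO to control comparison, where 10.7% of all genes were as low. There were 2 (Pdgfra and Abcc9) between Ntn1SPKO and wild-type kidneys, against 5.76% of all genes, and 3 (Pdgfa, Pdgfb and Abcc9) between control and wild-type kidneys, against 7.06%. Groups did not overlap for 2 members (Pdgfa and Pdgfrb) between Ntn1SPKO and control, and 19.9% of all genes did not, a share near that of the members. They did not overlap for 1 member (Pdgfra) between Ntn1SPKO and wild type, beside 7.1% of all genes, and for 3 (Pdgfa, Pdgfb and Abcc9) between control and wild type, beside 8.09%. The members' median log2 difference was −0.10, −0.02 and 0.06 in these comparisons, and the median of all genes tested was 0.0067, 0.0034 and −0.0072.

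**Figure D2:**
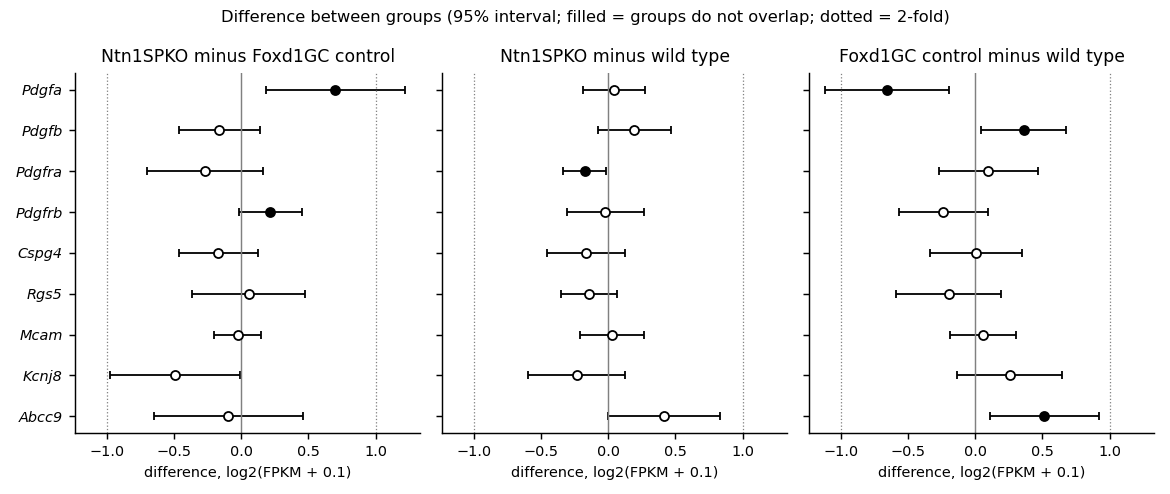
Difference of each member in the 3 comparisons, on the log2(FPKM + 0.1) scale (horizontal axis), with the 95% interval from limma. Filled points are members whose groups do not overlap, and dotted lines mark 2-fold. Each point lies within 2-fold, and Pdgfa is 0.70 higher in Ntn1SPKO than in control kidneys and 0.66 lower in control than in wild-type kidneys.

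Of the ligands, Pdgfa differed most. It encodes PDGF-A and lies on chromosome 5 (138976014 to 138997370). Its level was 24.8, 28.3, 23.3 and 21.8 FPKM in the wild-type libraries, 19.3, 17.6 and 10.9 FPKM in control libraries and 27.1, 24.7 and 23.8 FPKM in Ntn1SPKO libraries. The control libraries were the 3 lowest of the 10, with replicate 3 lowest, and Ntn1SPKO libraries lay within the wild-type range. Ntn1SPKO kidneys (25.2 ± 1.73 FPKM, SD, n = 3) exceeded control kidneys (15.9 ± 4.45 FPKM, n = 3) by 0.70 on the log2 scale (standard error 0.21, 1.62-fold, limma p = 0.0158, adjusted p = 0.447, exact permutation p = 0.1). Control kidneys were below wild-type kidneys (24.5 ± 2.77 FPKM, n = 4) by a log2 difference of −0.66 (standard error 0.20, limma p = 0.0111, adjusted p = 0.665, exact permutation p = 0.0286). Between Ntn1SPKO and wild-type kidneys the difference was 0.04, with a 95% interval from −0.19 to 0.27 and a limma adjusted p of 0.957. Without control replicate 3 the difference between Ntn1SPKO and control was 0.45 and that between control and wild type −0.41. With embryo sex as a covariate it was 0.51 between Ntn1SPKO and control, a value that rests on control replicate 2 alone, because no other control had Y-linked transcripts. Among libraries with Y-linked transcripts, Pdgfa was 17.6 FPKM in the control, 23.3 FPKM in the wild-type and 23.8 to 27.1 FPKM in the Ntn1SPKO libraries.

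Ureteric epithelium genes were measured beside Pdgfa. Of 9 ureteric genes, 9 were higher in Ntn1SPKO than in control kidneys (median log2 difference 0.66, 0 at an unadjusted p under 0.05), and 8 were lower in control than in wild-type kidneys (median −0.63). Their summed level was 217.3, 258.3 and 97.4 FPKM in control replicates 1 to 3, 249.9 to 264.1 FPKM in Ntn1SPKO and 246.3 to 271.8 FPKM in wild-type kidneys. Over the 10 libraries, which share scaling and dissection, the log2 levels of Pdgfa and of this list had a Pearson r of 0.88. Their Spearman rho was 0.48, and without control replicate 3 these values were 0.41 and 0.28. The likeness was not particular to Pdgfa, since with this list Rgs5 had an r of 0.85 (rho 0.685) and Pdgfrb 0.65 (rho 0.38). Without control replicate 3, Rgs5 had 0.26 (rho 0.57) and Pdgfrb 0.28 (rho 0.15). Epcam, an epithelial adhesion molecule, was the list's highest gene. The part of ureteric content in the Pdgfa difference was not tested.

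Pdgfb, which encodes PDGF-B, is on chromosome 15 (79995874 to 80014977). It had 3.76, 3.86, 4.14 and 3.16 FPKM in wild-type, 4.31, 4.76 and 5.35 FPKM in control and 4.64, 4.20 and 3.97 FPKM in Ntn1SPKO libraries. All 3 control libraries lay above all 4 wild-type libraries, and Ntn1SPKO libraries overlapped both groups. Control kidneys exceeded wild-type kidneys by 0.36 (standard error 0.13, limma p = 0.0294, adjusted p = 0.665, exact permutation p = 0.0286), and Ntn1SPKO kidneys differed from control by −0.16, with a 95% interval from −0.47 to 0.14. The estimated 68 to 100 fragments per library give a counting error of about 12% at the lowest, so part of this spread is sampling. Platelets and their precursors also carry PDGF-B, and 4 of 4 megakaryocyte genes tested were higher in control than in wild-type kidneys (0 at an unadjusted p under 0.05, median difference 0.395), as were 8 of 8 erythroid genes (7 at that limit, median 1.04). The summed megakaryocyte level overlapped, at 18.3 to 27.0 FPKM in control and 13.7 to 37.1 FPKM in wild-type libraries. The highest erythroid sum, 13690 FPKM, was in Ntn1SPKO replicate 3, whose Pdgfb was the lowest of its group. The part of platelet or erythroid content in the Pdgfb difference was not tested. The direction of Pdgfb in control kidneys was opposite to that of Pdgfa, and the ratio of Pdgfa to Pdgfb was 2.03 to 4.47 in control, 5.85 to 5.99 in Ntn1SPKO and 5.63 to 7.33 in wild-type libraries.

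The remaining family ligands encode PDGF-C and PDGF-D, which need proteolytic removal of a CUB domain to become active. Pdgfc was the most abundant ligand, with 36.3 ± 2.33 FPKM in wild-type (n = 4), 36.5 ± 2.95 in control (n = 3) and 40.9 ± 4.13 in Ntn1SPKO kidneys (n = 3), and its groups overlapped. Pdgfd had 6.45, 5.94, 6.83 and 6.04 FPKM in wild-type, 7.69, 4.68 and 8.63 FPKM in control and 4.83, 4.88 and 5.65 FPKM in Ntn1SPKO libraries. All Ntn1SPKO libraries were below all wild-type libraries, while the control libraries spread across both. Against wild type the Pdgfd difference was −0.30 (standard error 0.093, limma p = 0.0135, adjusted p = 0.646, exact permutation p = 0.0286), and against control it was −0.40 (standard error 0.23, adjusted p = 0.476). Pdgfrl, a receptor-like gene without a kinase, was low at 1.11 to 2.19 FPKM in the 10 libraries and overlapped between groups.

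Pdgfra, which encodes the receptor for PDGF-A on mesenchymal cells, is on chromosome 5 (75152292 to 75198215). It was measured at 66.0, 62.7, 58.7 and 59.7 FPKM in wild-type, 81.3, 49.8 and 71.2 FPKM in control and 55.2, 51.4 and 57.7 FPKM in Ntn1SPKO libraries. Ntn1SPKO libraries lay just below the wild-type libraries, and the control libraries held both the highest and the lowest of the 10 values. The difference between Ntn1SPKO and wild-type kidneys was −0.17 (standard error 0.069, limma p = 0.0374, adjusted p = 0.813, exact permutation p = 0.0286). Against control it was −0.27 (standard error 0.18, limma adjusted p = 0.504). Without control replicate 2 this difference was −0.47 (limma adjusted p = 0.127), and with embryo sex as a covariate, where control replicate 2 alone sets the value, it was 0.14.

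Stromal genes were measured beside Pdgfra. The summed level of 13 cortical and interstitial stroma genes, led by Col3a1, a fibrillar collagen, was 2294, 1543 and 2700 FPKM in control replicates 1 to 3, 1562 to 1853 FPKM in wild-type and 1548 to 1667 FPKM in Ntn1SPKO kidneys. Control replicates 1 and 3 were thus highest for both, and over the 10 libraries the log2 levels of Pdgfra and this sum had a Pearson r of 0.82 and a Spearman rho of 0.88. The sum is weighted to its most abundant genes, and with the median log2 level of the list r was 0.55. The median differed less between libraries, at 6.39 to 6.61 in control, 6.26 to 6.56 in wild-type and 6.11 to 6.48 in Ntn1SPKO kidneys. Alx1, a homeobox gene of the list, was 7.33, 13.3 and 2.56 FPKM in control replicates 1 to 3, lowest where the sum was highest. Of the 13 genes, 5 were higher and 8 lower in Ntn1SPKO than in wild-type kidneys. Of the lower ones, 4 were at an unadjusted limma p under 0.05 and 3 did not overlap. Foxd1, with a mean of 14.6 FPKM against 24.4 FPKM in wild type, was among the 4 and among the 3. Ntn1SPKO kidneys carry the Foxd1GC allele in place of a working Foxd1 copy, so the Foxd1 level can also depend on genotype. Control kidneys carry the same allele and had 19.65, 14.65 and 25.56 FPKM of Foxd1, overlapping wild-type libraries (21.3 to 30.68 FPKM). The part of the allele in the Foxd1 difference was not tested. For skeletal muscle genes the r with Pdgfra was 0.77 and the rho 0.92. All 17 of these genes that were tested were lower in Ntn1SPKO than in control kidneys (5 at an unadjusted p under 0.05, median difference −2.14). Against wild type, all 16 muscle genes tested were lower as well (11 at that limit, 8 without overlap, median −1.65). Whether stromal or muscle content accounts for the Pdgfra differences was not tested.

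Pdgfrb, which encodes the PDGF-B receptor of mural cells, is on chromosome 18 (61045150 to 61085061). Its values were 21.1, 20.6, 14.9 and 19.1 FPKM in wild-type, 16.2, 17.7 and 14.1 FPKM in control and 18.1, 18.4 and 19.0 FPKM in Ntn1SPKO libraries. The Ntn1SPKO libraries were close together and above all control libraries, with a gap of under 1 FPKM to control replicate 2, and wild-type libraries overlapped both groups. Ntn1SPKO kidneys exceeded control kidneys by 0.22 (standard error 0.097, 95% interval −0.02 to 0.45, limma p = 0.0658, adjusted p = 0.447, exact permutation p = 0.1). Without control replicate 3 the difference was 0.13 (limma adjusted p = 0.679). Between Ntn1SPKO and wild-type kidneys it was −0.02, with an interval from −0.31 to 0.26. With embryo sex as a covariate that value became 0.31, which is the difference from wild-type replicate 3 alone, the lowest wild-type library for Pdgfrb, since no other wild-type library had Y-linked transcripts.

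The ratio of Pdgfra to Pdgfrb was 3.04 to 3.94 in wild-type and 2.80 to 3.04 in Ntn1SPKO libraries. In control libraries it was 5.03, 2.81 and 5.06, so control replicate 2 resembled the Ntn1SPKO libraries and the other 2 control libraries exceeded all the rest. Ratios of members were chosen after the values were seen and are given as descriptions.

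**Figure D3:**
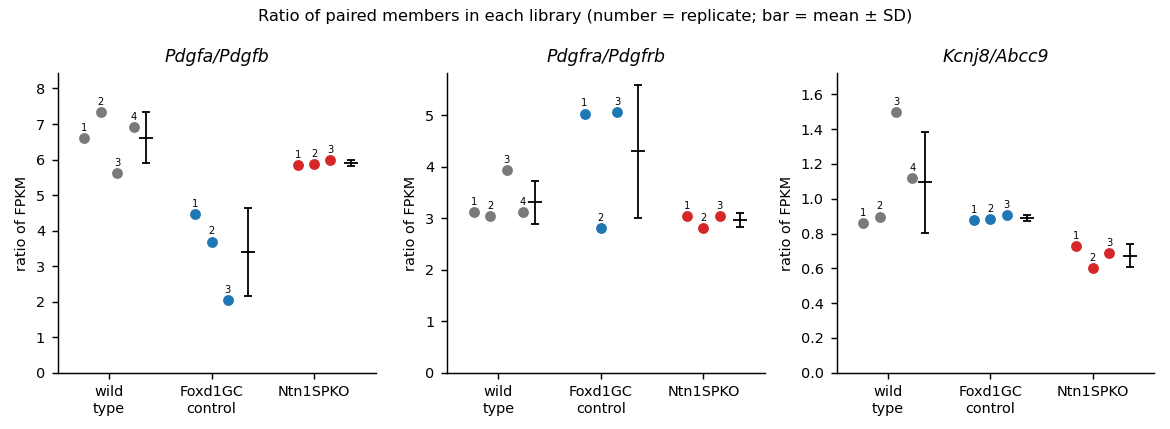
Ratio of FPKM between paired members (vertical axis, from 0) in each library, with replicate numbers and the mean ± SD beside each group. Pdgfa to Pdgfb is lowest in control libraries (2.03 to 4.47), and Kcnj8 to Abcc9 is lower in Ntn1SPKO (0.602 to 0.729) than in all other libraries.

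Among the mural surface and signalling markers, Rgs5 encodes a regulator of G-protein signalling that is abundant in pericytes, and is on chromosome 1 (169655501 to 169695813). It was 37.1, 40.2, 36.3 and 31.2 FPKM in wild-type, 35.7, 36.9 and 23.5 FPKM in control and 33.1, 31.4 and 33.5 FPKM in Ntn1SPKO libraries. Control replicate 3 was far below the rest, and the groups overlapped in each comparison. Between Ntn1SPKO and control kidneys the difference was 0.06 (standard error 0.17, limma adjusted p = 0.890). Without control replicate 3 the sign turned, with −0.15 (limma adjusted p = 0.673), and both remaining control libraries were above all Ntn1SPKO libraries. Groups this small often separate by chance, and the share of all genes that did so is not given. The difference between Ntn1SPKO and wild-type kidneys was −0.14 (95% interval −0.35 to 0.07).

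Cspg4 encodes NG2, a proteoglycan of pericytes and oligodendrocyte precursors, and is on chromosome 9 (56865033 to 56899870). Its level was 5.93, 5.72, 4.31 and 5.67 FPKM in wild-type, 5.70, 4.68 and 5.87 FPKM in control and 4.50, 4.93 and 4.90 FPKM in Ntn1SPKO libraries. Wild-type replicate 3 was the lowest of all, control replicate 2 lay within the Ntn1SPKO range, and the other libraries of both groups lay above it. Both are also the only ones with Y-linked transcripts outside the Ntn1SPKO group. The Cspg4 difference was −0.17 against both control (standard error 0.12, limma adjusted p = 0.529) and wild type (standard error 0.13, limma adjusted p = 0.947). With embryo sex as a covariate it was 0.03 against control and 0.14 against wild type, each set by 1 library, control replicate 2 and wild-type replicate 3.

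Mcam, which encodes the adhesion molecule CD146 of mural and endothelial cells, is on chromosome 9 (44134469 to 44142727). It had 18.0, 20.03, 15.3 and 16.1 FPKM in wild-type, 17.2, 18.5 and 18.2 FPKM in control and 16.8, 17.4 and 18.8 FPKM in Ntn1SPKO libraries. Groups overlapped throughout, and the differences were −0.03 against control and 0.03 against wild type for Ntn1SPKO, and 0.06 for control against wild type. The 95% interval between Ntn1SPKO and control ran from −0.20 to 0.15.

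Kcnj8 and Abcc9 encode Kir6.1 and SUR2, the pore and the sulfonylurea receptor of the ATP-sensitive potassium channel of pericytes and vascular smooth muscle. Kcnj8 was 3.54, 3.58, 4.63 and 4.08 FPKM in wild-type, 5.39, 5.22 and 3.74 FPKM in control and 2.72, 3.47 and 3.91 FPKM in Ntn1SPKO libraries. Ntn1SPKO replicates 1 and 2 were the lowest of the 10, and replicate 3 lay just above control replicate 3. Ntn1SPKO kidneys (3.37 ± 0.603 FPKM, SD, n = 3) were below control kidneys (4.78 ± 0.906 FPKM, n = 3) by a difference of −0.49 (standard error 0.20, 95% interval −0.98 to −0.01, limma p = 0.0476, adjusted p = 0.447, exact permutation p = 0.2). Without control replicate 3 it was −0.66 (limma adjusted p = 0.658), and with embryo sex as a covariate, which leaves control replicate 2 alone to set the value, −0.63. Against wild type it was −0.23 (95% interval −0.60 to 0.13). The estimated 100 to 200 fragments per library give a counting error of about 9.8% at the lowest.

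Abcc9 was measured at 4.12, 3.99, 3.09 and 3.65 FPKM in wild-type, 6.14, 5.90 and 4.13 FPKM in control and 3.73, 5.77 and 5.68 FPKM in Ntn1SPKO libraries. Control libraries were above all wild-type libraries, by under 1% in the case of control replicate 3, and Ntn1SPKO replicates 2 and 3 were above them as well. Control kidneys exceeded wild-type kidneys by 0.51 (standard error 0.17, limma p = 0.0190, adjusted p = 0.665, exact permutation p = 0.0286). Ntn1SPKO kidneys exceeded wild-type kidneys by 0.42 (standard error 0.18, limma p = 0.0498, adjusted p = 0.865, exact permutation p = 0.114) and differed from control by −0.10 (95% interval −0.65 to 0.46). Without control replicate 3, both remaining control libraries were above all Ntn1SPKO libraries, and the difference was −0.27. As for Rgs5, groups this small often separate by chance. Of the coding bases of Abcc9, 158 lie in exons of another annotated gene, 5330439B14Rik, and reads from either gene there could count for Abcc9 because the strand of counting is not stated.

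The ratio of Kcnj8 to Abcc9 was 0.729, 0.602 and 0.688 in Ntn1SPKO, 0.877, 0.884 and 0.906 in control and 0.861 to 1.497 in wild-type libraries. Each Ntn1SPKO library was below each of the other 7. The pair was chosen after the values were seen, so this separation is a description. On the log2 scale the mean ratio differed by −0.41 from control and by −0.67 from wild type, and control differed from wild type by −0.26. Leaving out each library in turn gave −0.47 to −0.33 against control and −0.77 to −0.51 against wild type. In control replicate 3 both genes were below their levels in replicates 1 and 2, while the ratio was the highest of the group at 0.906.

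Endothelial genes were measured beside Pdgfb and Abcc9. Of 14 endothelial genes tested, 12 were higher in control than in wild-type kidneys (2 at an unadjusted p under 0.05, median difference 0.17), and 13 were higher in Ntn1SPKO than in wild-type kidneys (3 at that limit, median 0.23). Egfl7, a secreted endothelial factor, differed by 0.72 between control and wild-type kidneys (standard error 0.13, limma adjusted p = 0.665), and Pecam1, an endothelial adhesion molecule, differed by 0.28 between Ntn1SPKO and wild-type kidneys (standard error 0.096, limma adjusted p = 0.724). The summed endothelial level was 216.7 to 276.6 FPKM in wild-type, 274.8 to 310.3 FPKM in control and 259.4 to 294.7 FPKM in Ntn1SPKO libraries. Over the 10 libraries the log2 level of Abcc9 had a Pearson r of 0.77 and a Spearman rho of 0.81 with this sum, and that of Pdgfb 0.61 and 0.46. With the median log2 level of the list, r was 0.749 for Abcc9 and 0.451 for Pdgfb. The part of endothelial content in the Pdgfb and Abcc9 differences was not tested.

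**Figure D4:**
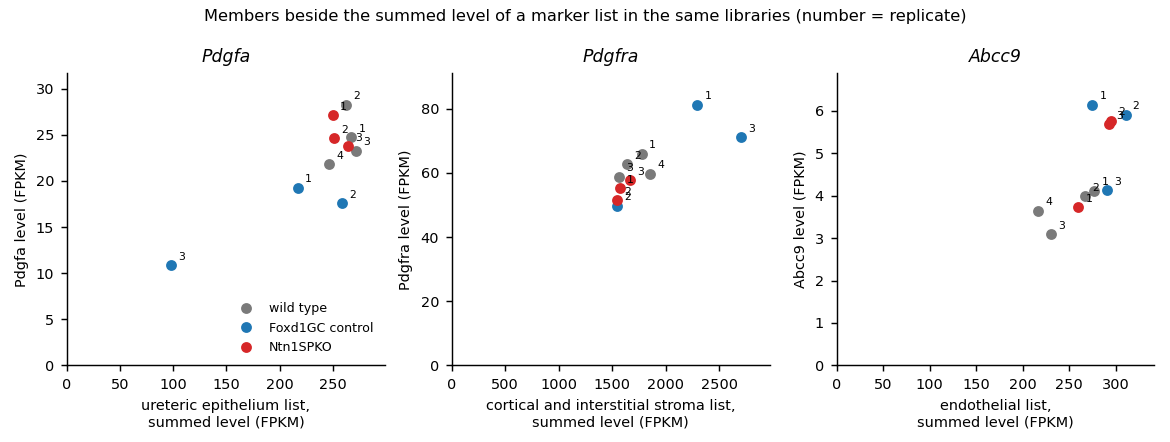
Level of Pdgfa, Pdgfra and Abcc9 in FPKM (vertical axes) against the summed level of the ureteric, stromal and endothelial list in the same library (horizontal axes, FPKM), one point per library with its replicate number. Control replicate 3 is the far-left point for Pdgfa, at 97.4 FPKM of ureteric genes, and control replicates 1 and 3 are the far-right points for Pdgfra.

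Other mural genes differed in both directions. Of 24, 18 passed the filter, and 8 were higher and 10 lower in Ntn1SPKO than in control kidneys, with 0 at an unadjusted p under 0.05 and a median difference of −0.12. Against wild type, 11 were higher and 7 lower, with Anpep, an aminopeptidase of pericytes and of proximal tubule (−0.51, limma adjusted p = 0.515), and Cox4i2, a hypoxia-linked subunit of cytochrome c oxidase (−0.37, limma adjusted p = 0.782), under 0.05. Between control and wild-type kidneys Gja4, which encodes the vascular connexin Cx37, was 0.42 higher (limma adjusted p = 0.665). The summed level of the list was 327.5 to 336.5 FPKM in Ntn1SPKO, 292.9 to 350.9 FPKM in wild-type and 317.4 to 472.4 FPKM in control libraries, with control replicate 3 highest. Of 5 renin and mesangial genes, 2 were higher and 3 lower in Ntn1SPKO than in control kidneys, 1 of them (Ren1) at an unadjusted p under 0.05. Akr1b7, an aldo-keto reductase of renin cells, had means of 3.01 FPKM in Ntn1SPKO and 2.33 FPKM in control kidneys, with overlap. Its wild-type mean was higher, at 5.47 FPKM, and wild-type libraries overlapped both groups. The Akr1b7 difference from wild type was −0.81 for Ntn1SPKO (exact permutation p = 0.0857) and −1.49 for control (exact permutation p = 0.0571). Both differences were at an unadjusted p under 0.05 (limma adjusted p = 0.529 and limma adjusted p = 0.665). Ren1, which encodes renin, was 1.79, 1.31 and 1.85 FPKM in Ntn1SPKO and 7.94, 2.39 and 3.70 FPKM in control libraries, a difference of −1.29 (standard error 0.43, limma adjusted p = 0.447). Wild-type libraries held 1.43 to 8.91 FPKM of Ren1 and overlapped both groups.

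The rest of the PDGF pathway was read from lists of genes for ligand processing, signal transduction and response. Of 10 genes for processing, retention and co-receptors, 3 were higher and 7 lower in Ntn1SPKO than in control kidneys (median −0.10), and 9 were higher in control than in wild-type kidneys (median 0.14). Pcsk5, a proprotein convertase, was 10.9, 9.79 and 9.79 FPKM in Ntn1SPKO, 15.2, 11.1 and 15.2 FPKM in control and 12.1, 12.3, 10.7 and 14.4 FPKM in wild-type libraries. Ntn1SPKO libraries were below all control libraries for Pcsk5, by a difference of −0.43 (standard error 0.14, limma p = 0.0218, adjusted p = 0.447, exact permutation p = 0.1), and below wild type by −0.28 with overlap (limma p = 0.0326, adjusted p = 0.785).

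Of 32 genes for receptor signal transduction, 22 were higher and 10 lower in Ntn1SPKO than in control kidneys, with 4 and 3 at an unadjusted p under 0.05 and a median difference of 0.06. The smallest p values belonged to Map2k2, a MAP kinase kinase (−0.16), Gab1, a docking protein (−0.35), Ptpn2, a phosphatase that acts on PDGF receptor beta (0.17), and Sos1, a Ras exchange factor (0.26), each with a limma adjusted p of 0.447. Against wild type only Pik3r1, the regulatory subunit of PI3 kinase, passed that limit, with −0.34 (standard error 0.091, limma adjusted p = 0.459). It was 44.6, 38.0 and 44.2 FPKM in Ntn1SPKO and 47.4 to 56.9 FPKM in wild-type libraries, with control libraries at 42.3 to 54.0 FPKM. Between control and wild-type kidneys Stat3 was 0.46 higher (standard error 0.17, limma adjusted p = 0.665).

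Of 12 growth factor response genes, 10 were tested between Ntn1SPKO and control kidneys, where 8 were higher. Myc, which encodes a transcription factor induced by growth factors, was 53.3, 54.6 and 50.2 FPKM in Ntn1SPKO, 45.4, 46.1 and 45.4 FPKM in control and 42.5, 44.9, 44.9 and 45.0 FPKM in wild-type libraries. All Ntn1SPKO libraries were above the other 7. The Myc difference was 0.21 against control (standard error 0.056, limma p = 0.00932, adjusted p = 0.447) and 0.25 against wild type (standard error 0.058, limma p = 0.00287, adjusted p = 0.331, exact permutation p = 0.0286). Ccnd1, which encodes cyclin D1, was 0.23 lower in Ntn1SPKO than in wild-type kidneys (limma adjusted p = 0.621). No gene of these pathway or mural lists was called in any comparison.

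Lastly, the members were compared with each other over the 10 libraries, as a description, since they share depth, scaling and group. The highest Pearson r on the log2 scale were 0.73 for Pdgfa with Rgs5 (Spearman rho 0.42), 0.72 for Pdgfa with Pdgfrb (rho 0.69) and 0.69 for Pdgfra with Cspg4 (rho 0.73), and the lowest was −0.65 for Pdgfb with Pdgfrb (rho −0.81). Control replicate 3 was the lowest library for both Pdgfa and Rgs5. For the ligand and receptor pair Pdgfa and Pdgfra r was −0.36 (rho −0.16), and the channel subunits Kcnj8 and Abcc9 had an r of 0.37 (rho 0.27). The genes most like Pdgfa among 14492 were Yy1, Canx and Sdad1 (r of 0.97 to 0.98). For Pdgfrb they were Ncor1, Dhx8 and Dag1 (0.96), for Rgs5 Zfp970, Thy1 and Scin (0.96 to 0.97) and for Mcam Tgfb1, C2cd2l and Notch4 (0.90 to 0.92). Those most like Pdgfb were Atl1, Sat1 and Insig1 (0.90 to 0.91), most like Cspg4 Gm48037, Kdm6a and Frmd6 (0.92 to 0.94), most like Kcnj8 Daglb, Cryl1 and Uba7 (0.89 to 0.94) and most like Abcc9 Exoc5, Ebf4 and Evc (0.88 to 0.93). With this many genes and 10 libraries, values of this size are found for genes of many kinds.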

How the data were processed

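RNA was extracted from whole kidneys of stage E13.5 and sequenced in 10 libraries. According to the methods and the submitters' processing notes, base calls were made with bcl2fastq 2.17.1.14 and the authors estimated transcript abundance with Salmon (version not given in the sources used here) on coding sequences of Ensembl GRCm38, so that UTR reads do not count. The deposited values are FPKM per gene, already scaled between libraries by the authors, and the strand of counting was not stated. Limma 3.58.1 (R 4.3.3, eBayes with trend) was run on log2(FPKM + 0.1) for genes averaging 0.5 FPKM or more in the compared groups, with Benjamini-Hochberg adjustment over all of them, and single genes with exact permutation tests in scipy 1.17.1. The log scale understates fold changes of low genes. Coordinates are those of GENCODE M21.

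Members and lists were chosen with earlier results of these data known. All members and other PDGF family genes were named, from each other list at most 4 genes per comparison with the smallest unadjusted p under 0.05 and the highest gene, Ntn1, and for each member the 3 genes with the highest r, which for Pdgfra are not reported here. Wt1, Six2 and Epcam were named as the highest kidney markers of their lists, and Myc, Pcsk5, Ren1 and Pik3r1 library values were added after their tests were seen. Alternatives were other pseudocounts, filters, scalings and variance settings, all libraries in one fit, a replicate block, embryo sex and leaving out each library. Counts of groups that do not overlap and the Kcnj8 to Abcc9 ratio without each library were chosen after seeing the data.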

Additional observations from a re-analysis of the deposited data

Results flagged for a closer look

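Cspg4 had 4.31 FPKM in wild-type replicate 3, while the other 3 wild-type libraries had 5.67 to 5.93 FPKM. The gap to the nearest library was 0.839 of the group's range, above Dixon's limit for 4 samples. Chance alone gives about 1 such group in 20, and 12 genes were examined in the wild-type group. The same library was the lowest wild-type library for Pdgfrb, Abcc9, Mcam (15.3 FPKM) and Pdgfra (58.7 FPKM) and the highest for Kcnj8 and Pdgfb (4.14 FPKM), and its summed FPKM was 1002640, against 795829 to 874966 in the other 9 libraries.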

How the results depend on the processing

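No member was called under any alternative run. The number of members at an unadjusted p under 0.05 depended on the setting. Between Ntn1SPKO and control kidneys (2 members) it was 1 with no filter, rescaling to the same total, quantile normalization, no intensity trend or the replicate block, 0 with embryo sex as a covariate, and 0 (without Ntn1SPKO replicate 1) to 4 (without control replicate 2, where 3428 of 14564 genes were at that limit, against 1551 of 14550 with all libraries) when libraries were left out in turn. Between Ntn1SPKO and wild-type kidneys (2 members) it was 1 with a filter at 1 FPKM or none, a pseudocount of 1 or 0.01, median of ratios or quantile normalization, 0 with rescaling to the same total, no intensity trend, all 10 libraries in one fit or the replicate block, and 0 to 2 when libraries were left out, with 0 without wild-type replicate 1 or 2 or Ntn1SPKO replicate 2. Between control and wild-type kidneys (3 members) it was 2 to 4 when libraries were left out. Over all 19 alternatives of this comparison, processing settings included, the limma p was under 0.05 in 19 for Pdgfa, 16 for Abcc9 and 13 for Pdgfb. It was under 0.05 in 1 each for Kcnj8, Pdgfra and Pdgfrb. Members without overlap numbered 2 to 5, 1 to 4 and 3 to 4 in these comparisons when libraries were left out, with 5 without control replicate 3 and 4 without wild-type replicate 3. The share of all genes without overlap is not given for these smaller groups. Smaller groups separate more often by chance, so these counts cannot be read as a result about the members. Replicate numbers were not treated as pairs in the main fit. Libraries of different groups with the same number had correlations of −0.04 to 0.08, and those with different numbers −0.115 to 0.056. These ranges overlap and do not settle whether the samples were paired. Signs that turned were these log2 differences. For Ntn1SPKO minus control, Mcam was 0.0090 with rescaling to the same total, and embryo sex as a covariate gave 0.14 for Pdgfra, 0.029 for Cspg4, −0.17 for Rgs5 and 0.12 for Pdgfd. For Ntn1SPKO minus wild type, Pdgfrb was 0.034 with rescaling to the same total, the replicate block gave −0.012 for Pdgfa and −0.0028 for Mcam, and embryo sex gave 0.31 for Pdgfrb and 0.14 for Cspg4. For control minus wild type, Cspg4 was −0.038 with quantile normalization. Leaving out single libraries turned the sign of some differences. Ranges for Ntn1SPKO minus control were −0.15 (without control replicate 3) to 0.17 for Rgs5, −0.073 to 0.0078 for Mcam, −0.27 to 0.11 for Abcc9 and −0.033 to 0.23 for Pdgfrl. For Ntn1SPKO minus wild type they were −0.012 to 0.11 for Pdgfa, −0.13 to 0.035 for Pdgfrb and −0.027 to 0.10 for Mcam. For control minus wild type they were −0.052 to 0.30 for Pdgfra, −0.098 to 0.11 for Cspg4, −0.31 to 0.0093 for Rgs5, −0.058 to 0.052 for Pdgfc and −0.071 to 0.36 for Pdgfd. Values with embryo sex rest on control replicate 2 or wild-type replicate 3 alone, and against wild type 4349 of 14432 genes were then at an unadjusted p under 0.05 (832 without it). The cause of these changes was not tested. Low fragment numbers limit Pdgfb, Kcnj8 and Pdgfrl most.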
